A study of Mus musculus with 8 samples.

Results

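The genes described here encode the proteins that lactating mammary epithelium secretes: the caseins Csn1s1, Csn1s2a, Csn2 and Csn3, the whey proteins Wap and Lalba, the milk mucin Glycam1, the iron-binding proteins Ltf and Lcn2, and the milk fat globule protein Btn1a1. They were chosen by name, 10 genes in all, and each was read from the transcript cluster (the set of probes for 1 gene) whose platform annotation gives that symbol alone. This found 9 of the 10 among 19938 genes. Lalba, which encodes alpha-lactalbumin, has 1 cluster that is also annotated to Trip12 and was not analysed here. RNA came from 5 primary mammary tumors, each under 1.0 cm across, of FvB mice with the MMTV-Neu transgene, in which a mammary tumor virus promoter drives the rat form of Erbb2 in mammary epithelium. Flow sorting split every tumor into a fraction of tumor-initiating cells (TIC) and a CD24-negative fraction. The sources used here do not name the markers of the TIC gate. Tumors N222 and N229 were mixed 1 to 1 before sorting, so there were 4 TIC arrays and 4 CD24-negative arrays from N251, N260, N283 and the pool N222+229. Both fractions carry the transgene, and no array of normal or lactating gland was among the samples.

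Caseins bind calcium phosphate into micelles and make up most of the protein in mouse milk, whereas whey proteins stay soluble. In the gland their genes are switched on in alveolar luminal cells during pregnancy and lactation, when prolactin acts through JAK2 and the transcription factor STAT5 together with glucocorticoid. Ltf and Lcn2 are made by epithelium and are also stored in neutrophil granules, and Glycam1 is also made by high endothelial venules of lymph nodes.

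All values are log2 expression values as deposited, and a difference of 1 is a 2-fold change. Medians and quartiles of an array were taken over all 35556 clusters, including those with no symbol. Array medians were 7.03 to 7.18, lower quartiles 5.82 to 5.94 and upper quartiles 8.66 to 8.76. Each gene has its own probes, so a rank among all genes describes the signal and not the number of transcripts. The CD24-negative array of N251 stood apart in its cell markers. Its luminal epithelial marker mean was 9.28, where the other CD24-negative arrays had 10.07 to 10.26, and its macrophage marker mean was 12.44, where the others had 9.90 to 11.60.

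Csn2 and Wap were called higher in the TIC fraction when arrays were paired by tumor, and with all 8 arrays no milk gene was called without pairing. The 4 caseins and Lcn2 lay above the upper quartile of all clusters on all 8 arrays. Btn1a1 did so on 7, Wap on 4, and Ltf and Glycam1 on 0. Of the 9 measured genes, 7 were higher in the TIC array of every tumor (23.2% of all genes were), and 0 were lower in every tumor (11.8% of all genes were). Butyrophilin, whey acidic protein and beta-casein genes had the highest ratios of TIC to CD24-negative, at 2.23, 2.06 and 1.75 on average. Without the CD24-negative array of N251 the log2 difference of Btn1a1 was 0.67 and lay below those of Wap (0.99) and Csn2 (0.85). With limma and no pairing, 0 of 9 were called higher (0.0502% of all genes were) and 0 lower (0.742%) at an adjusted p under 0.05. At an unadjusted p under 0.05, 3 of 9 were higher (8.02% of all genes) and 0 lower (6.24%). The fractions came from the same tumors. With the tumor as a replicate block 2 of 9, Csn2 and Wap, were called higher (0.863% of all genes were) and 0 lower (1.09%), and 7 of 9 were higher at an unadjusted p under 0.05 (14.2% of all genes). With the tumor as a random block the calls were also 2 higher (2.16% of all genes) and 0 lower (3.04%). The median difference of the 9 genes was 0.38, against 0.04 over all genes and 0.39 over 14 luminal epithelial markers. The luminal marker mean differed most in N251, at 10.31 in the TIC array against 9.28 in the CD24-negative array. In sorted tumor fractions, fewer cells of a type and less RNA per cell cannot be told apart.

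**Figure D1:**
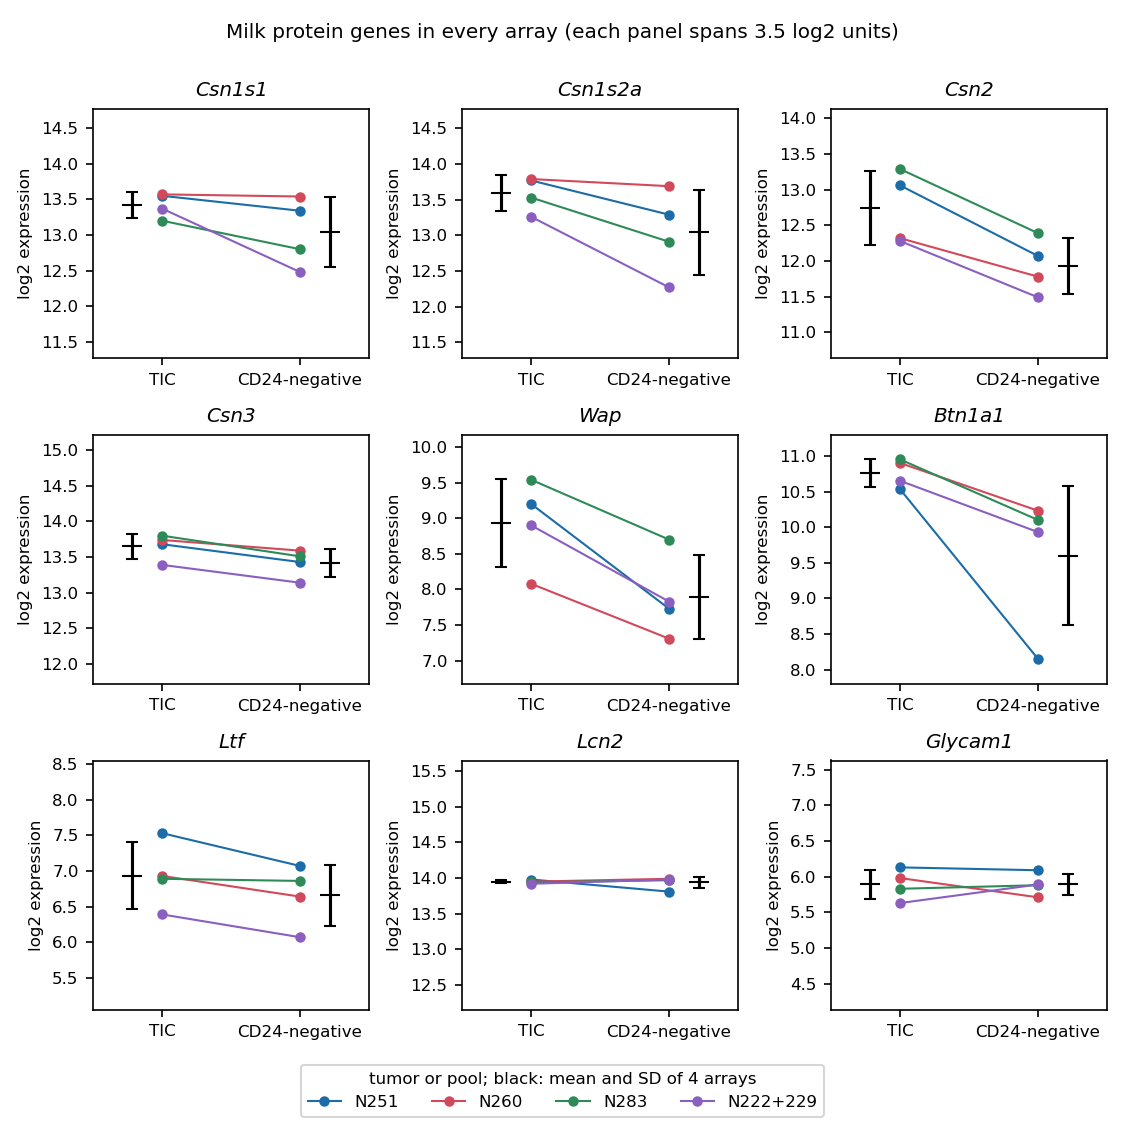
Log2 expression of the 9 measured milk protein genes (y axis) in the TIC and CD24-negative arrays (x axis), with a line joining the 2 arrays of each tumor or pool and the mean and SD (n = 4) in black; each panel spans 3.5 log2 units. Lines slope down from TIC to CD24-negative in all 4 tumors for Csn1s1, Csn1s2a, Csn2, Csn3, Wap, Btn1a1 and Ltf, and run nearly level for Lcn2.

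The 4 caseins lie together at 1 locus on chromosome 5, in the order Csn1s1, Csn2, Csn1s2a and Csn3 (RefSeq, GRCm38.p6). The 250 bases before the start of Csn1s1 and Csn2 are shown because STAT5 is the known activator of casein genes, with capitals marking the STAT-type motif TTCNNNGAA, which is the same on both strands. The same stretch of Wap is shown because Wap followed Csn2 most closely among the members. The stretches are chr5:87665958-87666207 on the plus strand, chr5:87699426-87699675 on the minus strand and chr11:6638650-6638899 on the minus strand, each written 5′ to 3′.
Csn1s1: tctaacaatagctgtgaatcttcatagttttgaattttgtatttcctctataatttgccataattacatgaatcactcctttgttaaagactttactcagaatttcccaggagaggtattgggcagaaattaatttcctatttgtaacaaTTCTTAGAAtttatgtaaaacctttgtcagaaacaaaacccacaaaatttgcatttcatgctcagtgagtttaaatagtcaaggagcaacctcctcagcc
Csn2: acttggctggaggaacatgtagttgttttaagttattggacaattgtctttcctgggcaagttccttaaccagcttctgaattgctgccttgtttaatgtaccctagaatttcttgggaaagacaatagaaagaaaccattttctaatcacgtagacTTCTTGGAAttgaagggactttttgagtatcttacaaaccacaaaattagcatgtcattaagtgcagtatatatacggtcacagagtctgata
Wap: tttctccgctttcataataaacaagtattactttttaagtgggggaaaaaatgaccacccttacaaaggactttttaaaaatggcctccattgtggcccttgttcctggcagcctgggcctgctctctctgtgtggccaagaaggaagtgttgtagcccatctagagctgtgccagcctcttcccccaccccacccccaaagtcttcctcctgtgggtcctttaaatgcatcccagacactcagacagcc
The Csn1s1 motif spans bases -100 to -92 and the Csn2 motif bases -93 to -85 before the start site. Of the 10 listed genes 8 have a window in the RefSeq table, which runs from 250 bases before to 50 bases after a start. The motif was in 4 of these 8 windows, those of Csn1s1, Csn2, Csn1s2a (TTCTTAGAA at bases 21 to 29 after the start) and Glycam1 (TTCCCAGAA at -145 to -137), and in 8.3% of 32851 windows of all genes. The motif TTGCNNAA of C/EBP factors was in 2 of 8 (Lcn2 and Ltf) and in 10.8% of all windows, and the NF-kappaB consensus in 0 of 8 and in 4.51%. A match is a description of the letters and no evidence of binding.

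Csn2, which encodes beta-casein, had log2 values of 13.06, 12.32, 13.29 and 12.28 in the TIC arrays of N251, N260, N283 and N222+229, against 12.07, 11.78, 12.39 and 11.49 in the CD24-negative arrays. The fractions overlapped across tumors, while the TIC array was the higher of the pair in every tumor. The mean was 12.74 ± 0.52 in TIC arrays and 11.93 ± 0.39 in CD24-negative arrays (SD, n = 4 each). The log2 difference was 0.81 ± 0.27 (SE) and was not called without pairing (limma adjusted p = 0.238). It ranged from 0.54 in N260 to 1.00 in N251, and with the tumor as a replicate block it was called (SE 0.10, adjusted p = 0.0286). In blocked limma fits of 3 tumors the Csn2 difference was 0.74 without N251 (adjusted p = 0.0202), 0.90 without N260 (adjusted p = 0.186), 0.78 without N283 (adjusted p = 0.160) and 0.81 without the pool (adjusted p = 0.0601). The fits without N260 and without N283 called 0 of 19938 genes in either direction, so their p-values say nothing on the stability of 1 gene. The fit without the pool called 0.371% of all genes higher, and that without N251 called 1.81%.

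Wap, the major whey protein of mouse milk, had 9.20, 8.08, 9.54 and 8.90 in the TIC arrays of N251, N260, N283 and N222+229, against 7.73, 7.31, 8.70 and 7.83 in the CD24-negative arrays. Its level in the CD24-negative array of N283 was above that in the TIC array of N260, so the fractions overlapped. The mean was 8.93 ± 0.62 in TIC arrays and 7.89 ± 0.59 in CD24-negative arrays (SD, n = 4 each). The difference was 1.04 ± 0.36 (limma adjusted p = 0.241), with values from 0.77 in N260 to 1.48 in N251. It was called with the tumor as a replicate block (SE 0.13, adjusted p = 0.0306). In the same blocked fits of 3 tumors the Wap difference was 0.90 without N251, 1.13 without N260, 1.11 without N283 and 1.03 without the pool (limma adjusted p = 0.0132, 0.190, 0.158 and 0.0674).

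Btn1a1, which encodes the butyrophilin that milk fat droplets carry as they leave the cell, was the 1 member whose fractions did not overlap (5.19% of all genes lay apart in that direction); 0 of 9 lay apart in the other (4.68% of all genes). It had 10.53, 10.90, 10.95 and 10.65 in the TIC arrays of N251, N260, N283 and N222+229, against 8.15, 10.23, 10.10 and 9.93 in the CD24-negative arrays. The N251 array was by far the lowest. The mean was 10.76 ± 0.20 in TIC arrays and 9.60 ± 0.98 in CD24-negative arrays (SD, n = 4 each), and the difference of 1.16 ± 0.41 was not called without or with the block (limma adjusted p = 0.258 and 0.12). Without the CD24-negative array of N251 the difference was 0.67 and was called (limma adjusted p = 0.0467). Without both N251 arrays it was 0.75, with an adjusted p = 0.0705 in limma without pairing and an adjusted p = 0.0145 with the block.

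Csn1s1, which encodes alpha-S1-casein, had 13.55, 13.57, 13.20 and 13.37 in the TIC arrays of N251, N260, N283 and N222+229, against 13.34, 13.54, 12.80 and 12.48 in the CD24-negative arrays. Csn1s2a, which encodes an alpha-S2-type casein, had 13.77, 13.79, 13.53 and 13.26 in the TIC arrays, against 13.29, 13.69, 12.91 and 12.27 in the CD24-negative arrays. The tumors had the same order of Csn1s2a levels in both fractions. Both genes differed least in N260 (0.04 and 0.10) and most in the pool (0.89 and 0.99). Neither was called: Csn1s1 differed by 0.38 ± 0.22 (limma adjusted p = 0.478, and 0.21 with the block) and Csn1s2a by 0.55 ± 0.28 (adjusted p = 0.41, and 0.126 with the block). Csn3, which encodes the kappa-casein that caps the micelle, had 13.68, 13.74, 13.80 and 13.39 in the TIC arrays, against 13.43, 13.59, 13.51 and 13.14 in the CD24-negative arrays. Its difference of 0.24 ± 0.13 had the same sign and nearly the same size in all tumors (0.14 to 0.29) and was not called (limma adjusted p = 0.461, and 0.146 with the block).

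Lcn2, which encodes the siderophore-binding protein lipocalin 2, had 13.98, 13.95, 13.94 and 13.92 in the TIC arrays of N251, N260, N283 and N222+229, against 13.81, 13.99, 13.97 and 13.98 in the CD24-negative arrays. It varied least of the 9 members, by 0.18 between its lowest and highest array. The difference was 0.01, with a 95% interval of -0.18 to 0.20 (limma adjusted p = 0.981). Lcn2, Csn1s1, Csn1s2a and Csn3 were among the brightest 1% of genes on all 8 arrays. Whether the arrays still measure differences in proportion at so high a signal was not tested.

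Ltf, which encodes lactoferrin, had 7.53, 6.93, 6.89 and 6.39 in the TIC arrays of N251, N260, N283 and N222+229, against 7.07, 6.64, 6.86 and 6.07 in the CD24-negative arrays. The fractions overlapped, the highest and lowest tumor lay 1.07 apart on average, and the difference between fractions of 0.27 ± 0.27 was not called (limma adjusted p = 0.707, and 0.176 with the block). Glycam1, a mucin-like protein of milk and of lymph node vessels, had 6.13, 5.98, 5.83 and 5.63 in the TIC arrays, against 6.09, 5.71, 5.88 and 5.89 in the CD24-negative arrays. It lay under the lower quartile of all clusters on 2 of 8 arrays, and its mean level was at percentile 19.7 of all genes. Its mean was 5.89 in both fractions, and the 95% interval of the difference ran from -0.29 to 0.30 (limma adjusted p = 0.996). At so low a signal a difference may not be detectable.

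**Figure D2:**
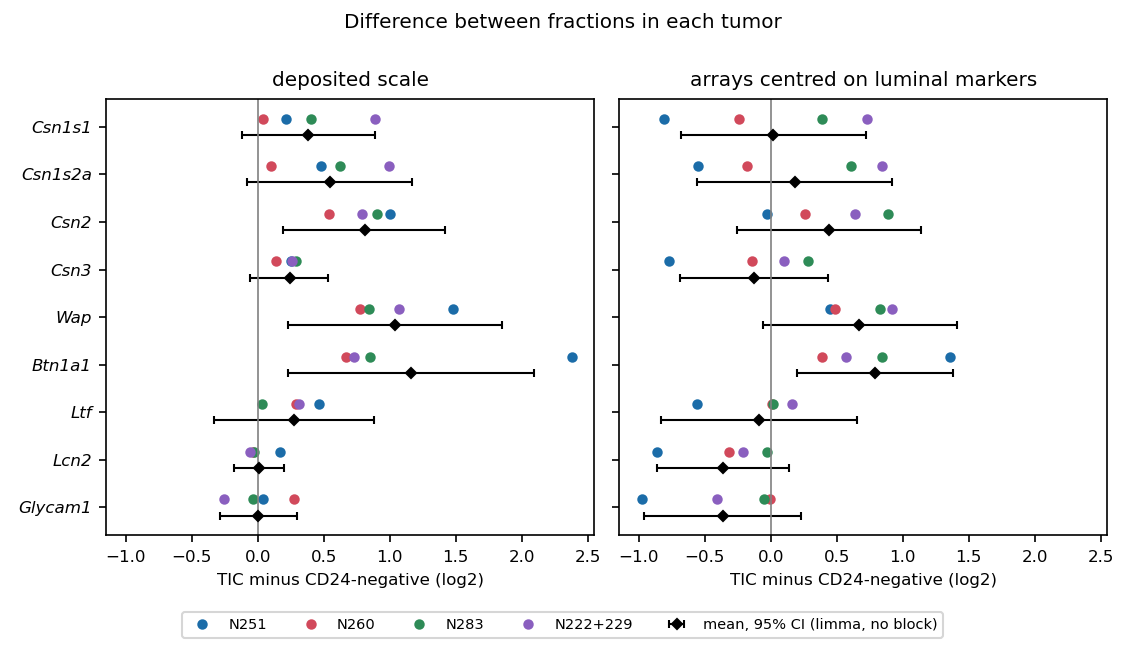
TIC minus CD24-negative log2 differences (x axis) of the 9 members (y axis) in each tumor or pool (coloured points), with the limma mean and 95% interval without a block in black, on the deposited scale (left) and after centring each array on 14 luminal epithelial markers (right). On the left the points of 7 genes lie above 0 in all tumors. On the right only Wap and Btn1a1 keep all points above 0. There the N251 and N260 points of Csn1s1, Csn1s2a and Csn3 lie below 0, as do the N251 points of Csn2 and Ltf and all points of Lcn2 and Glycam1.

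Epithelial and leukocyte markers were also compared between the fractions. Of 14 luminal markers 0 were called (limma), and 2 had an unadjusted p under 0.05, both higher (8.02% of all genes were). Of these markers 8 were higher in the TIC fraction of all tumors (23.2% of all genes were). Epcam, an adhesion protein of epithelium, averaged 12.09 in TIC arrays and 11.69 in CD24-negative arrays, and the luminal keratin gene Krt8 averaged 12.73 and 12.30 in those fractions (limma adjusted p = 0.382 and 0.568). Cldn7, Cldn4 and Cdh1, genes of epithelial junctions, differed by 0.69, 0.48 and 0.28 (adjusted p = 0.26, 0.303 and 0.382). Of 12 pan-leukocyte markers 11, and of 13 macrophage markers 13, were lower in the TIC fraction of all tumors (11.8% of all genes were). The list means were 6.59 to 6.88 in TIC arrays against 8.79 to 11.54 in CD24-negative arrays for pan-leukocyte markers, and 6.25 to 6.61 against 9.90 to 12.44 for macrophage markers. Cd24a, the gene of the sort antigen, was bright on both sides of the sort. Its mean was 12.32 in TIC arrays and 11.22 in CD24-negative arrays, and it was not called without pairing (limma adjusted p = 0.148). Cd24a was higher in the TIC array of every tumor, by 0.38 in N283 to 1.73 in N251. The random block called this gene (limma adjusted p = 0.0293), whereas the replicate block did not (limma adjusted p = 0.0691).

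Each array was also centred on the mean of the 14 luminal markers, which was 0.37 higher in the TIC fraction and shifted the difference of every gene by that amount. The 0.37 came mostly from N251, where the luminal mean was 10.31 in the TIC and 9.28 in the CD24-negative array. In N260, N283 and the pool it was 10.35, 10.27 and 10.27 in TIC arrays against 10.07, 10.26 and 10.12. Relative to luminal markers the median difference of the 9 milk genes was 0.02. Btn1a1 differed by 0.79 ± 0.28, Wap by 0.67 ± 0.35 and Csn2 by 0.44 ± 0.33, and 0 of 9 were called (limma adjusted p = 0.28, 0.444 and 0.444, and 0.0548, 0.132 and 0.367 with the block). Wap and Btn1a1 stayed higher in the TIC fraction of all 4 tumors, and Csn2 of 3. Csn3, Ltf, Lcn2 and Glycam1 turned to -0.13, -0.09, -0.36 and -0.36. Of these, Ltf was below 0 only in N251 (-0.56) and Csn3 in N251 and N260 (-0.77 and -0.14). Lcn2 and Glycam1 were below 0 in all 4 tumors. The part of cell composition in the differences on the deposited scale was not tested further.

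**Figure D3:**
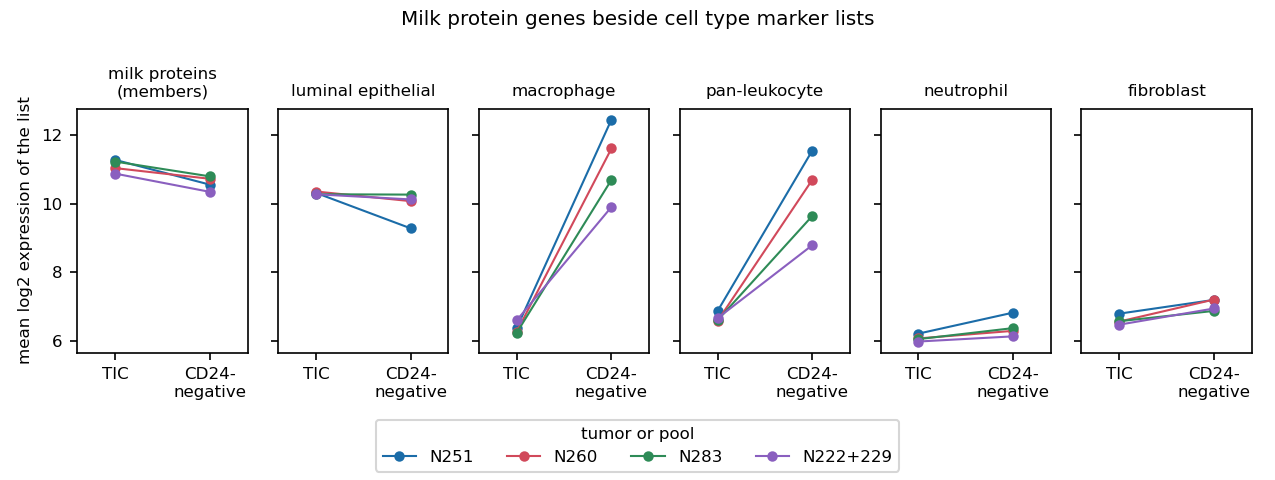
Mean log2 expression (y axis) of the 9 milk protein genes and of 5 cell type marker lists in the TIC and CD24-negative arrays (x axis), 1 line per tumor or pool. Macrophage and pan-leukocyte means lie far lower in every TIC array than in its CD24-negative partner, while milk protein means run from 10.87 to 11.27 in TIC arrays and from 10.34 to 10.79 in CD24-negative arrays.

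Markers of the other cells known to make these proteins were followed too. Of 18 neutrophil genes 0 were called (limma). At an unadjusted p under 0.05, 1 was higher (8.02% of all genes) and 6 lower (6.24%). With the block 1 was called lower (1.09% of all genes). The mean of the 18 genes was 5.99 to 6.22 in TIC arrays against 6.14 to 6.83 in CD24-negative arrays. These means lay between the lower quartile and the median of all clusters of each array. The highest, 6.83 in the CD24-negative array of N251, was nearer the median of that array (7.18) than its lower quartile (5.94). Csf3r and Cxcr2, receptors of neutrophils, were lower in the TIC fraction by 2.20 and 1.29 on the log2 scale, and Cd177, a surface protein of neutrophils, was higher by 1.10 (limma adjusted p = 0.0784, 0.197 and 0.129, and 0.0425, 0.126 and 0.0514 with the block). Cd177 was called with the tumor as a random block (limma adjusted p = 0.0218). Of 11 genes of high endothelial venules and endothelium 1 fell, Cd34 (-1.11, limma adjusted p = 0.0141, with values of -1.27 to -0.95 when an array or tumor was left out, and an adjusted p from 0.00484 to 0.292), and their mean was 6.06 to 6.25 in TIC arrays against 6.36 to 6.72 in CD24-negative arrays. Among 12 myoepithelial, 10 fibroblast, 9 B and plasma cell, 7 adipocyte and 8 keratinocyte and salivary genes 0 were called (limma), with medians of 0.03, -0.19, -0.23, 0.00 and -0.07. At an unadjusted p under 0.05 the numbers higher were 3, 0, 1, 0 and 0, in that order (8.02% of all genes). The numbers lower were 0, 3, 3, 0 and 0 (6.24% of all genes). With the tumor as a replicate block 4 were called (0.863% of all genes were called higher and 1.09% lower). The myoepithelial Oxtr (1.21, limma adjusted p = 0.0457) and Sdc1 of the B and plasma cell list (0.52, adjusted p = 0.0432) were higher in the TIC fraction. The B cell gene Cd79b (-1.25, adjusted p = 0.0313) and the fibroblast gene Thy1 (-1.73, adjusted p = 0.0416) were lower. Jchain, also of the B and plasma cell list, was lower by 1.69 (limma adjusted p = 0.128, and 0.112 with the block). It was called lower with the tumor as a random block (limma adjusted p = 0.0367), as was the fibroblast gene Lum (-0.40, adjusted p = 0.0244). The part of these cells in the levels of Lcn2, Ltf and Glycam1 was not tested.

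The order of the tumors differed between milk genes. Csn2 was highest in N283 and lowest in the pool in both fractions, and Wap was highest in N283 and lowest in N260 in both. Csn1s1 and Csn1s2a had their highest value in N260 in both fractions, the tumor where Wap was lowest. In TIC arrays N251 was close behind N260, at 13.55 against 13.57 for Csn1s1 and 13.77 against 13.79 for Csn1s2a. Csn1s2b, another casein gene described below, was lowest in N260 in both fractions (6.94 in TIC and 5.96 in CD24-negative). Ltf was highest in N251 and lowest in the pool in both fractions. Averaged over both fractions, the spread between the highest and lowest tumor was 1.43 for Wap, 1.22 for Btn1a1, 1.07 for Ltf, 0.98 for Csn1s2a and 0.96 for Csn2, against a median of 0.35 over all genes and of 0.07 for Lcn2. In limma's F test for a difference among tumors, with the fraction in the model, 0 of 9 were called and 0% of all genes were. At an unadjusted p under 0.05 there were 5 of 9 (Csn1s2a, Csn2, Csn3, Wap and Ltf) and 20.5% of all genes. The adjusted p of Csn2, Wap and Ltf was 0.122, 0.123 and 0.12. Without the TIC array of N251, 4 of 9 were called (Csn2, Wap, Ltf and Btn1a1), where 21% of all genes were. Without its CD24-negative array 3 were called (2.06% of all genes), and without both N251 arrays 2 (5.4% of all genes).

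**Figure D4:**
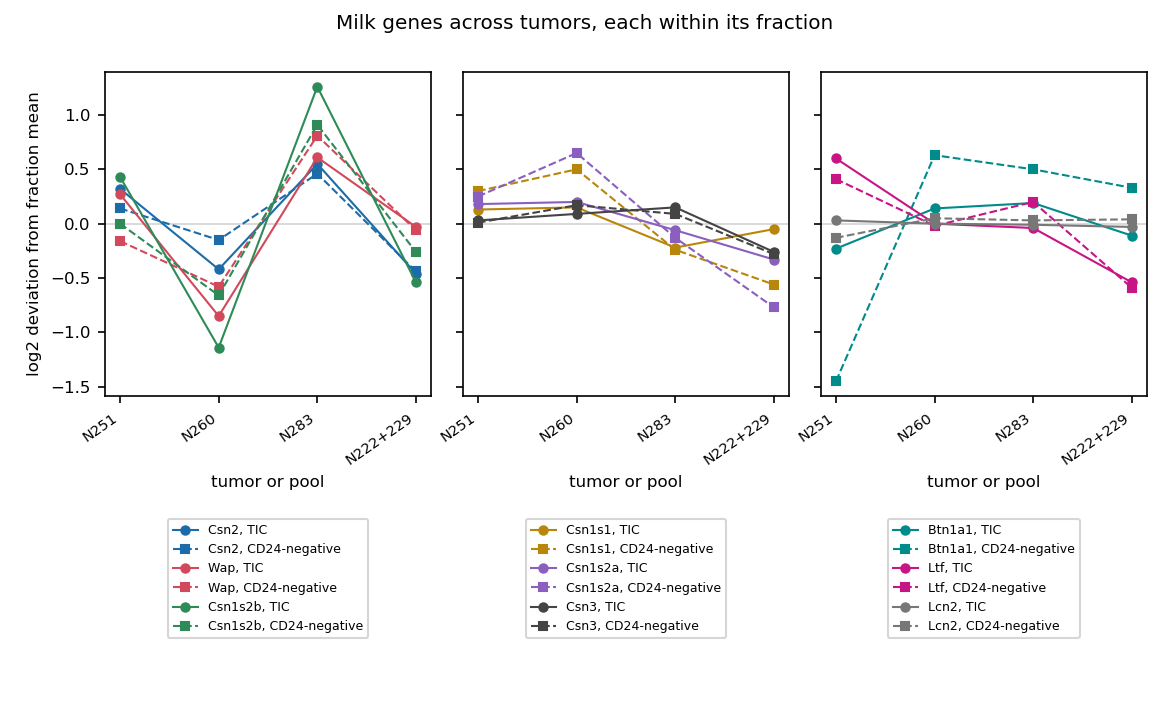
Log2 deviation from the mean of the fraction (y axis) in each tumor or pool (x axis) for milk genes, TIC as circles with solid lines and CD24-negative as squares with dashed lines; the lines only guide the eye. Csn2, Wap and Csn1s2b (left) peak in N283 in both fractions, Csn1s1 and Csn1s2a (middle) are highest in N260, and Btn1a1 (right) is low in the CD24-negative array of N251.

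Profiles over the 8 arrays are described by Pearson's r, with no test, since the arrays share 4 tumors and 2 fractions. Among pairs of members the highest values were 0.95 for Csn1s1 with Csn1s2a, 0.88 for Csn2 with Wap and 0.87 for Csn1s2a with Csn3. Among the 1864 genes with an SD over the arrays of at least 0.5, those most like Csn2 were Slc35d3 (0.964), Plekhg1 (0.963), Csn1s2b (0.952), Cd177 (0.935) and Flrt3 (0.932). Those most like Wap were Col12a1 (0.979), Ptpn14 (0.978), Csn1s2b (0.968), Scrn1 (0.962) and the oxytocin receptor gene Oxtr (0.960). For Lcn2 the highest values were lower, from 0.894 for Flvcr2 and 0.885 for Esrp2 and Marveld3 to 0.877 for Bhlha15 and Kitl. Lcn2 had an SD of only 0.06 over the arrays and was lowest in the CD24-negative array of N251 (13.81). Each of these genes was also lowest there, such as Flvcr2 at 10.57 against 12.09 to 12.29 on the other arrays. The values for Lcn2 thus rest mostly on that 1 array.

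Csn1s2b, a further alpha-S2-type casein gene next to Csn1s2a that was not among the 10, was compared in the same way. It had 8.51, 6.94, 9.34 and 7.54 in the TIC arrays of N251, N260, N283 and N222+229, against 6.62, 5.96, 7.53 and 6.36 in the CD24-negative arrays. The difference of 1.46 ± 0.52 (2.76-fold) was positive in all 4 tumors, was not called without pairing (limma adjusted p = 0.253) and was called with the block (adjusted p = 0.0273). After luminal centring it was 1.10, with a limma adjusted p = 0.444 without the block and 0.00266 with it, a combination chosen after seeing the data. On the deposited scale the difference was 1.32 to 1.63 in the blocked fits that left out 1 tumor each. The other 4 measured neighbours of the locus, Odam, Sult1e1, Cabs1 and Smr3a, were not called.

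On the deposited scale with all 8 arrays, no gene of milk fat was called without pairing. Lpl was called with the tumor as a replicate block and as a random block (limma adjusted p = 0.0265 and 0.00766), and Acaca only with the random block. After luminal centring Lpl was also called without the block (limma adjusted p = 0.00727). Of 22 genes of milk fat and secretion 0 were called in either direction without the block (limma), with a median of 0.32. At an unadjusted p under 0.05, 7 differed upward (8.02% of all genes) and 1 downward (6.24%). Lpl, the lipase that takes up circulating fat, had 7.12, 7.22, 7.03 and 6.46 in the TIC arrays of N251, N260, N283 and N222+229, against 10.07, 9.87, 8.82 and 7.95 in the CD24-negative arrays. It was lower in the TIC fraction by 2.22 on the log2 scale (limma adjusted p = 0.0561, and 0.0265 with the block), and macrophages are known to express it too. Mfge8 of the milk fat globule, Acaca of fatty acid synthesis and the desaturase gene Scd1 were higher by 0.80, 0.65 and 0.32, with an adjusted p = 0.241, 0.193 and 0.249 (limma), and with the block 0.14, 0.0808 and 0.154. Acaca was called with the tumor as a random block (limma adjusted p = 0.0403).

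Of 19 genes of lactose synthesis, transport and other whey components 0 were called (limma). At an unadjusted p under 0.05, 6 differed upward (8.02% of all genes) and 0 downward (6.24%). Lao1, an amino acid oxidase of mouse milk, differed by 1.57 and was called with the block (limma adjusted p = 0.225, and 0.0206 with the block). Abcg2, which pumps riboflavin into milk, Pigr, which carries antibodies into it, and Ugp2 of sugar nucleotide synthesis differed by 0.98, 0.91 and 0.46 (limma adjusted p = 0.126, 0.212 and 0.199). Of these, Abcg2 was called with the tumor as a random block (limma adjusted p = 0.0265) and not with the fixed block (adjusted p = 0.0744). Of 19 regulators of milk genes 0 were called without or with the block (limma; at an unadjusted p under 0.05, 1 differed upward and 0 downward), with a median of 0.25. Ehf, Tfap2c and Nfib, transcription factors of luminal cells, differed by 0.59, 0.55 and 0.41, and the kinase gene Akt1 by 0.26 (limma adjusted p = 0.332, 0.412, 0.472 and 0.383).

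Genes of the acute phase and of involution, the regression of the gland in which Lcn2 is known to be induced, were mixed. Of 20 measured 0 were called (limma), with a median of -0.10. At an unadjusted p under 0.05, 2 differed upward (8.02% of all genes) and 2 downward (6.24%). Lrg1, a secreted acute phase protein, differed by -1.31 and was called with the block (limma adjusted p = 0.0675, and 0.0189 with the block). Cd14, a receptor for bacterial lipopolysaccharide, differed by -0.88, whereas Cp, which encodes ceruloplasmin, and Lbp, which binds lipopolysaccharide, differed by 0.94 and 0.63 (limma adjusted p = 0.307, 0.226 and 0.256). Cp was called with the tumor as a random block (limma adjusted p = 0.0484). In the blocked fits that left out 1 tumor each, the difference ran from -2.47 to -1.98 for Lpl, from 1.42 to 1.73 for Lao1, from -1.37 to -1.22 for Lrg1 and from -2.50 to -1.82 for Csf3r. The call of Csf3r was lost without the pool (limma adjusted p = 0.0685), while those of Lpl, Lao1 and Lrg1 held. All 4 calls held without N251. All 4 were lost without N260 and without N283, where the fits called 0 of all genes.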

How the data were processed

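RNA of the 8 sorted fractions, purified with PicoPure per the labels, was hybridised to Affymetrix Mouse Gene 1.0 ST arrays, 1 per fraction. Each deposited value is a log2 expression value of a transcript cluster. The submitters' processing notes name RMA and Partek as the authors' tools; no version, setting or genome build is given in the sources used here. The table has 35556 clusters, of which 21789 are annotated to exactly 1 symbol, 1621 to several and 12146 to none; a gene was read from its brightest cluster, which left 19938 genes. The RefSeq table of GRCm38.p6 gave names, gene order and promoter windows. Titles name tumors N251 and N260 where the growth protocol has N250 and N261, and the titles were followed.

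Differences are TIC minus CD24-negative, from lmFit and eBayes (limma 3.58.1, R 4.3.3) over all 8 arrays, with no block and no filter; a call is a Benjamini-Hochberg adjusted p under 0.05 over all genes. Arrays of 1 tumor deviated together (correlations across genes of 0.32, 0.43, 0.30 and 0.56 for N251, N260, N283 and N222+229), and both came from the same tumor per the labels, so values with the tumor as a replicate block are printed for genes whose difference is given and whose call differs with them. The members and lists were chosen with earlier results of these data known. The lists' genes named are the 4 (3 for cell type lists) with the smallest p, of which some are given only in counts; Csn2, Wap and Lcn2 got the 5 genes of highest correlation; Cd24a, Epcam, Krt8 and Ptprc were set as checks. Sult1e1 is named outside this rule, without a value. The fits were tested on simulated data. The number of arrays limits the precision. Without a block the p-values set a difference against the spread between tumors within each fraction. With the tumor as a replicate block they set it against the spread of the differences within tumors. The pool N222+229 counts as 1 tumor in both. Alternatives covered pairing, scaling, filters, weights, thresholds and arrays left out.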

Additional observations from a re-analysis of the deposited data

Results flagged for a closer look

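In 7 of 138 sets of 4 arrays, a gene or list mean had 1 array far from the other 3 of its fraction; about 7 such cases arise by chance. Among the milk genes these were 2 of 18 sets, both in the CD24-negative array of N251. Btn1a1 was at 8.15 there (others 9.93 to 10.23) and Lcn2 at 13.81 (others 13.97 to 13.99). The same array had Ugp2 at 9.13 (others 9.51 to 9.59) and the mean of high endothelial venule and endothelium markers at 6.72 (others 6.36 to 6.41). Odam, an enamel matrix protein gene that lies in the casein locus between Csn1s2b and Csn3, was at 10.43 in the CD24-negative array of the pool N222+229, where the other CD24-negative arrays had 5.84 to 6.37. Its TIC array of that pool had 7.41, the highest of the TIC arrays (others 5.90 to 6.59). Krt8 was at 13.08 in the TIC array of the pool (others 12.59 to 12.64) and Lyz2 at 6.99 there (others 6.04 to 6.20).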

How the results depend on the processing

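Against 0 milk genes called higher, 2 were called with the tumor as a replicate block and 2 with it as a random block (Csn2 and Wap), 3 with the block and without both N251 arrays (1.81% of all genes), 0 with the block and without N260, N283 or the pool (0%, 0% and 0.371% of all genes), and 0 to 1 when an array or tumor was left out of the unpaired fit (0.15% of all genes where 1). Against 0 called different among tumors, 1 was called with array weights (Wap, 1.31% of all genes) and 0 to 4 when an array or tumor was left out (21% of all genes where 4). No milk gene was called lower in any setting run. Centring on luminal markers, with the block (a combination chosen after seeing the data) and without it, turned Csn3 (-0.13), Ltf (-0.094), Lcn2 (-0.36), Glycam1 (-0.36), Scd1 (-0.047), Akt1 (-0.105) and Cdh1 (-0.089), since it moves every gene by one amount. Lcn2 was -0.07 after cyclic loess, -0.02 with array weights, -0.043 with the block without N251, and -0.043 to 0.033 with an array or tumor left out. Glycam1 was -0.011 and -0.086 with the block without N251 and without N260, and -0.086 to 0.089 with an array or tumor left out. Odam ran from -1.024 to 0.506 and Smr3a from -0.289 to 0.023 with an array or tumor left out, and Odam was 0.235 with the block without the pool. Csn1s1, Csn1s2a, Csn2, Wap and Btn1a1 kept their direction in all 28 settings, from 0.02 to 0.55, 0.18 to 0.76, 0.44 to 0.96, 0.67 to 1.32 and 0.67 to 1.37. With all arrays the block changed the calls of Csn2 and Wap and of no other member. The causes of these changes were not tested beyond the settings' own construction. Background was not measured, so low signals such as those of Glycam1 limit what can be seen.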
